A study of Mus musculus with 12 samples.

Results

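Genes of regulatory T cells and of the receptors that start, sustain or restrain T cell responses were examined in whole lung. The list held 10 genes, Foxp3, Ikzf2, Il2ra, Ctla4, Pdcd1, Lag3, Icos, Tnfrsf4, Tnfrsf9 and Tnfrsf18, taken by gene symbol from the 55414 genes of the expression table. The lungs came from 12 mice, 1 library per mouse, all on a C57BL/6 J background, all given lipopolysaccharide (LPS) to induce acute lung injury (ALI) and all taken on day 4. In 6 of them, the IL-10 B-KO mice, a floxed Il10 gene was deleted by Mb1-Cre, and the other 6 were IL-10 B-WT. Mb1 is another name of Cd79a, so that Cre acts in the B lineage from its early stages and not in T cells. Whether the IL-10 B-WT mice carried the floxed gene or Cre, and the age and sex of the mice, are not given in the sources used here. The series holds no lung without LPS. The question of the study is what IL-10 from B cells does while ALI resolves.

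Regulatory T cells are CD4 T cells that express the transcription factor FOXP3 and hold other immune cells in check, partly by consuming IL-2 through CD25, partly through the inhibitory receptor CTLA-4 and partly through IL-10. In the injured lung they are known to promote resolution and epithelial repair. Most of the other receptors on the list are not restricted to them: ICOS, OX40, GITR and 4-1BB are costimulatory receptors of activated T cells, PD-1 and LAG-3 restrain activated and exhausted T cells, and several of them are also found on innate lymphoid, NK or myeloid cells.

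The values are TPM, in which the reads of each gene are divided by its length and every library is scaled to the same total. TPM keep no sequencing depth, so that the counting error of a low value is unknown, and the precision rests on the spread between lungs. Since whole lung was sequenced, fewer cells of a type and less RNA per cell cannot be told apart. Il10 itself was at 0 to 0.88 TPM in lungs of IL-10 B-WT mice and at 0 to 0.58 TPM in IL-10 B-KO lungs. The means were 0.355 and 0.282 TPM, with no difference by exact permutation (p = 0.745). The study itself reports lower IL-10 mRNA and protein in lungs of IL-10 B-KO mice after LPS. The TPM used here are near 0, cover every cell of the lung and not B cells alone, and do not show the deletion. Cd79a was at 15.3 TPM or more in every IL-10 B-WT lung and at 5.73 TPM or less in every IL-10 B-KO lung.

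A few lungs stood apart before any gene of the list was compared. The 17 T cell markers, of which Thy1 was the most abundant and none was at 0 in any library, summed to 268, 585, 399, 111, 73.6 and 202 TPM in replicates 1 to 6 of IL-10 B-WT. In IL-10 B-KO replicates 1 to 6 they summed to 603, 142, 145, 227, 190 and 189 TPM. The most T cell RNA was thus in replicate 2 of IL-10 B-WT and replicate 1 of IL-10 B-KO, and 0 of the 17 markers had an unadjusted p of at most 0.05 between the genotypes (median log2 fold change 0.02). The 9 macrophage markers, with C1qb the most abundant and none at 0, summed to 1513, 372, 794, 243, 146 and 420 TPM in replicates 1 to 6 of IL-10 B-WT and to 1484, 352, 2208, 1132, 1934 and 1399 TPM in replicates 1 to 6 of IL-10 B-KO. IL-10 B-WT replicate 1 was therefore at the level of most IL-10 B-KO lungs, while replicate 2 of the latter was as low as most IL-10 B-WT lungs. The 9 B cell markers summed to 923 TPM in IL-10 B-WT replicate 2 and to between 74.7 and 137 TPM in the other IL-10 B-WT lungs. In IL-10 B-KO lungs they summed to 89.7 TPM in replicate 2, 63.4 TPM in replicate 6 and between 8.10 and 19.4 TPM in the others, in each of which 3 of the 9 were at 0. IL-10 B-WT replicate 5 stood apart in the alveolar epithelial markers, which summed to 3900 TPM there and to between 10138 and 22662 TPM in all other lungs.

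Among the 10 genes, Tnfrsf9 had the largest difference in size, with a higher mean in IL-10 B-KO lungs, and Ctla4 and Foxp3, both lower there, came next, but none of the 10 passed its test over the 12 libraries. Over the whole table, 15148 genes had at least 1 TPM in at least 6 of the 12 libraries and were tested with limma on log2(TPM + 1). Calling a gene took an adjusted p (Benjamini-Hochberg) no higher than 0.05 and a log2 fold change of 1 or more in size, which 75 genes (0.495%) met. With 1 library left out, 15 to 576 genes met it. Of the 10 genes of the list, 8 passed the filter, while Foxp3 and Ikzf2 each reached 1 TPM in 3 libraries and were compared singly. None of the 8 was called by limma. At an unadjusted p of at most 0.05, 1 of the 8 was higher in IL-10 B-KO lungs, Tnfrsf9, against 6.83% of all tested genes, and 0 of the 8 were lower, against 5.71%. When each gene was compared by exact permutation (two-sided), for which 6 lungs against 6 give a smallest p of 0.00216, 0 of the 10 had a p of at most 0.05. The groups overlapped for all 10 genes, and 1.02% of all tested genes had groups that did not. The median log2 fold change, IL-10 B-KO minus IL-10 B-WT, was -0.06 over the 8 and 0.10 over all tested genes. Of the 8, 6 had a log2 fold change below 0, although Il2ra, Tnfrsf4, Tnfrsf18 and Lag3 among them lay within 0.19 of 0, and with quantile normalization Tnfrsf4 was at 0.03. This count rested on single lungs, since leaving out replicate 2 of IL-10 B-WT put 2 of the 8 below 0 and leaving out replicate 1 put 3 there.

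**Figure D1:**
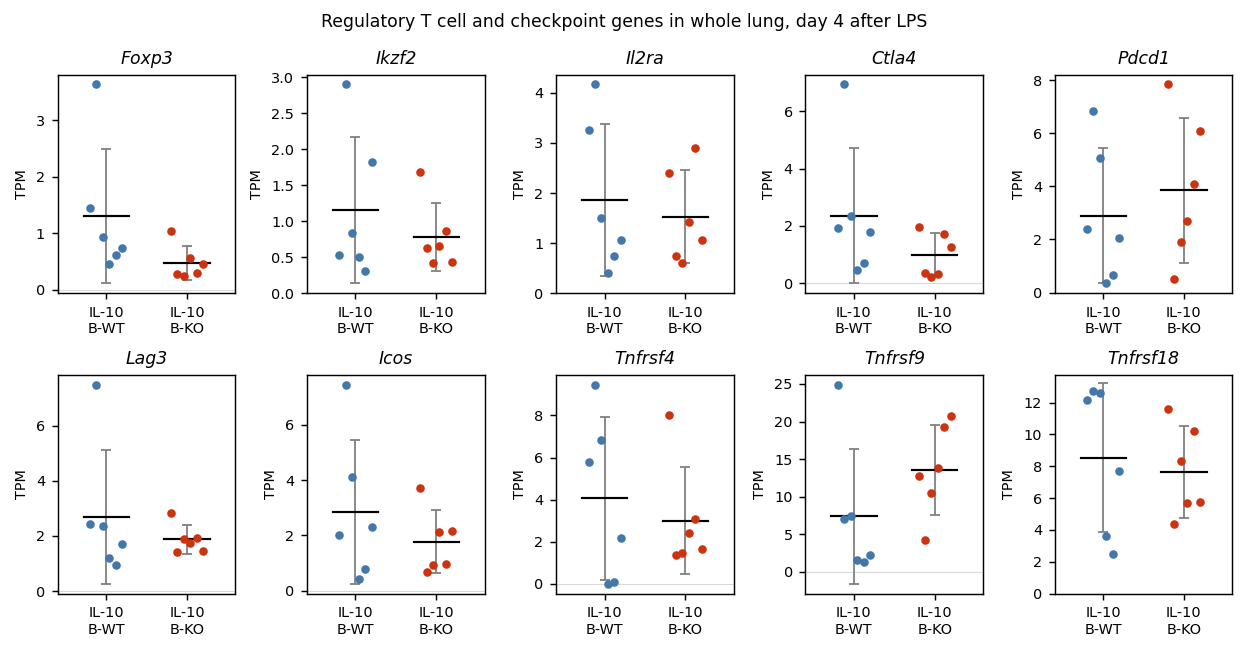
TPM of the 10 genes (y axis) in the lungs of 6 IL-10 B-WT mice (blue) and 6 IL-10 B-KO mice (red), with replicates 1 to 6 from left to right in each group, a black line at the mean and a grey bar of 1 SD to either side. The groups overlap for every gene, IL-10 B-WT replicate 2 is the highest library for 8 of the 10 genes, among them Foxp3 at 3.63 TPM and Ctla4 at 6.93 TPM, and Tnfrsf9 is highest in IL-10 B-WT replicate 1 at 24.9 TPM.

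The transcription factors of the list, Foxp3 and Ikzf2, had its lowest median levels. Foxp3 (ENSMUSG00000039521, chromosome X, 7573644 to 7595245, plus strand, GRCm38) encodes the forkhead factor that specifies regulatory T cells. It was at 1.44, 3.63, 0.93, 0.46, 0.62 and 0.73 TPM in replicates 1 to 6 of IL-10 B-WT. In IL-10 B-KO replicates 1 to 6 it was at 1.04, 0.28, 0.25, 0.57, 0.29 and 0.45 TPM. Of the 6 IL-10 B-KO lungs, 4 lay under all IL-10 B-WT lungs, and IL-10 B-KO replicate 1, the lung with the most T cell RNA, was above 4 of the 6 IL-10 B-WT lungs. The means were 1.30 ± 1.19 TPM for IL-10 B-WT and 0.48 ± 0.301 TPM for IL-10 B-KO (SD, n = 6 each). The log2 fold change was -0.54, with an exact permutation p of 0.0541, so that the difference did not pass 0.05. Without IL-10 B-WT replicate 2 the log2 fold change was -0.31 (exact permutation p = 0.104), and without replicates 1 and 2 of that group it was -0.20. With a pseudocount of 0.1 in place of 1, the log2 fold change of Foxp3 was -1.08 and the exact permutation p 0.0411, so that the size of the difference depends on the pseudocount at these low TPM. The exact permutation p lay between 0.0173 and 0.115 with 1 library left out, at or under 0.05 without replicate 4, 5 or 6 of IL-10 B-WT or replicate 1 of IL-10 B-KO. Without the filter on low TPM, the limma adjusted p was 0.620. The annotation places 590 bases of the exons of Ccdc22, a gene on the opposite strand, over exons of Foxp3, and whether reads were counted by strand is not given in the sources used here. Ccdc22 was at 5.35 to 15.9 TPM and did not vary with Foxp3 over the 12 libraries (Pearson's r -0.02), but the share of its reads in the Foxp3 value was not tested. The noncoding gene Flicr shares 853 exon bases with Foxp3 on its own strand, was at 1.13 TPM or less and had an r of 0.45 with Foxp3, and its share was not tested either. On the opposite strand, Ppp1r3f (266 exon bases shared, 0.48 to 2.93 TPM, r 0.39 with Foxp3) and Gm36995 (373 bases, 0.05 to 0.63 TPM, r 0.36) also overlap it, likewise untested.

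Ikzf2 (ENSMUSG00000025997, chromosome 1, 69531214 to 69687245, minus strand) encodes Helios, a zinc finger factor found in many regulatory T cells and in some other lymphocytes. It was at 0.31 to 2.90 TPM (median 0.68) in lungs of IL-10 B-WT mice and at 0.42 to 1.69 TPM (median 0.64) in lungs of IL-10 B-KO mice. The highest lungs were again IL-10 B-WT replicate 2 and, among IL-10 B-KO lungs, replicate 1. The means were 1.15 ± 1.01 and 0.783 ± 0.473 TPM (SD, n = 6 each), with a log2 fold change of -0.19 and an exact permutation p of 0.543.

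Il2ra (ENSMUSG00000026770, chromosome 2, 11642807 to 11693193, plus strand) encodes CD25, the chain that gives the IL-2 receptor its high affinity, and is expressed by regulatory T cells at rest and by other T cells and group 2 innate lymphoid cells on activation. It was at 0.41 to 4.17 TPM (median 1.29) in lungs of IL-10 B-WT mice and at 0.61 to 2.90 TPM (median 1.25) in lungs of IL-10 B-KO mice. Every IL-10 B-KO lung lay within the range of IL-10 B-WT lungs. Il2ra had a log2 fold change of -0.10 (standard error, SE, 0.34, adjusted p by limma 0.911). Of 10 further genes of IL-2 receptor signaling, 10 were tested, 0 had an unadjusted p of at most 0.05 in either direction, and the median log2 fold change was 0.13. The smallest p-values among them belonged to Socs2 (log2 fold change 0.44), Il2rb (0.61) and Bcl2 (-0.24).

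Of the inhibitory receptors, Ctla4 (ENSMUSG00000026011, chromosome 1, 60887000 to 60915832, plus strand) encodes CTLA-4, which competes with CD28 for CD80 and CD86. It was at 1.91, 6.93, 2.34, 0.47, 0.69 and 1.77 TPM in replicates 1 to 6 of IL-10 B-WT. In IL-10 B-KO replicates 1 to 6 Ctla4 stood at 1.97, 0.36, 0.23, 0.32, 1.70 and 1.26 TPM. IL-10 B-KO replicates 2, 3 and 4 lay under all IL-10 B-WT lungs, and the other 3 lay inside the range of IL-10 B-WT lungs. The means were 2.35 ± 2.36 and 0.973 ± 0.769 TPM (SD, n = 6 each). Ctla4 thus had a log2 fold change of -0.62 (SE 0.38, limma unadjusted p = 0.127, adjusted p = 0.495). IL-10 B-WT replicate 2 carried a large part of it, since without that lung the log2 fold change was -0.33. Without IL-10 B-WT replicate 4 it was -0.81 (limma unadjusted p = 0.0499). The lowest limma adjusted p with 1 library left out was 0.367. With a pseudocount of 0.1 the log2 fold change of Ctla4 was -1.08 (limma adjusted p = 0.488).

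Pdcd1 (ENSMUSG00000026285, chromosome 1, 94038305 to 94052553, minus strand) encodes PD-1, the receptor for PD-L1 and PD-L2. It was at 2.40, 6.83, 5.06, 0.37, 0.65 and 2.06 TPM in replicates 1 to 6 of IL-10 B-WT. In IL-10 B-KO replicates 1 to 6 it was at 7.84, 0.51, 1.89, 2.71, 4.09 and 6.07 TPM. IL-10 B-KO replicate 1 was the highest of the 12 libraries, 4 of 6 IL-10 B-KO lungs were above the IL-10 B-WT median of 2.23 TPM, and the other 5 IL-10 B-KO lungs lay inside the IL-10 B-WT range. For Pdcd1 the log2 fold change was 0.37 (SE 0.49, adjusted p by limma 0.751), and it lay between 0.12 and 0.66 when 1 library was left out, replicate 4 of IL-10 B-WT for the former and replicate 2 of IL-10 B-KO for the latter. With a pseudocount of 0.1 it was 0.56. Lag3 (ENSMUSG00000030124, chromosome 6, 124904361 to 124911705, minus strand), next to Cd4 on the chromosome, encodes a CD4-related receptor for MHC class II. It was at 0.96 to 7.48 TPM (median 2.03) in lungs of IL-10 B-WT mice and at 1.42 to 2.84 TPM (median 1.81) in lungs of IL-10 B-KO mice. All IL-10 B-KO lungs lay within the IL-10 B-WT range, which is set at its upper end by replicate 2. Lag3 had a log2 fold change of -0.19 (SE 0.30, adjusted p by limma 0.798).

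Of the costimulatory receptors, Icos (ENSMUSG00000026009, chromosome 1, 60977927 to 61000320, plus strand) lies 62094 bases from Ctla4 and encodes a CD28-related receptor of activated and follicular helper T cells and of regulatory T cells. It was at 0.41 to 7.45 TPM (median 2.18) in lungs of IL-10 B-WT mice and at 0.69 to 3.73 TPM (median 1.55) in lungs of IL-10 B-KO mice. The log2 fold change was -0.31 (SE 0.41, adjusted p by limma 0.744), with 5 of 6 IL-10 B-KO values under the IL-10 B-WT median, but it was -0.03 without IL-10 B-WT replicate 2. Tnfrsf4 (ENSMUSG00000029075, chromosome 4, 156013843 to 156016612, plus strand), which encodes OX40, was the only gene of the list at 0 in any library. It was listed at 0 in IL-10 B-WT replicate 4 and at 0.10 TPM in replicate 5, and at 5.79, 9.46 and 6.84 TPM in replicates 1 to 3 of that group. In IL-10 B-KO lungs it was between 1.35 and 3.07 TPM except in replicate 1, at 8.01 TPM. Tnfrsf4 had a log2 fold change of -0.00 (SE 0.59, adjusted p by limma 0.998), and of 0.64 with a pseudocount of 0.1. Tnfrsf18 (ENSMUSG00000041954, chromosome 4, 156026164 to 156028895, plus strand), 9551 bases from Tnfrsf4, encodes GITR, a receptor that is high on regulatory T cells. It was at 2.51 to 12.7 TPM (median 9.93) in lungs of IL-10 B-WT mice and at 4.35 to 11.6 TPM (median 7.03) in lungs of IL-10 B-KO mice. IL-10 B-WT replicates 1, 2 and 3 were above every IL-10 B-KO lung and IL-10 B-WT replicates 4 and 5 below every one, so that the IL-10 B-KO lungs sat in the gap. Tnfrsf18 had a log2 fold change of -0.02 (SE 0.37, adjusted p by limma 0.984). The antisense gene Gm16008 shares 414 exon bases with Tnfrsf18 and was at 0.30 to 4.13 TPM with an r of 0.48 with Tnfrsf18, and the share of its reads in the Tnfrsf18 value was not tested.

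Tnfrsf9 (ENSMUSG00000028965, chromosome 4, 150914562 to 150946102, plus strand) encodes 4-1BB, a costimulatory receptor of activated T and NK cells that activated myeloid cells can also express. It was at 24.9, 7.09, 7.42, 1.54, 1.25 and 2.27 TPM in replicates 1 to 6 of IL-10 B-WT. In IL-10 B-KO replicates 1 to 6 it was at 12.8, 4.21, 10.5, 13.8, 19.3 and 20.7 TPM. All IL-10 B-KO lungs but replicate 2 were above 5 of the 6 IL-10 B-WT lungs, but the highest value of all 12 was that of IL-10 B-WT replicate 1, and replicate 2 of IL-10 B-KO was below 3 IL-10 B-WT lungs. The means were 7.41 ± 8.99 and 13.5 ± 6.03 TPM (SD, n = 6 each). The log2 fold change was 1.22 (SE 0.56, limma unadjusted p = 0.0455, adjusted p = 0.382, exact permutation p = 0.0844), so that Tnfrsf9 was not called. Without IL-10 B-WT replicate 1 it was called, with a log2 fold change of 1.66 (limma adjusted p = 0.0485), in an analysis in which 3.85% of all tested genes were called. Without IL-10 B-WT replicates 1 and 2, a choice made after the data were seen, the log2 fold change was 1.90 and the limma adjusted p 0.0593.

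By median TPM over the 12 libraries, Tnfrsf9 (8.94 TPM) and Tnfrsf18 (8.02 TPM) were the most abundant of the list. They did not differ beyond their spread, since Tnfrsf9 was the higher of the pair in 6 of 12 libraries, 1 of 6 IL-10 B-WT and 5 of 6 IL-10 B-KO lungs. Tnfrsf18 was above Pdcd1 (2.56 TPM), next in the order, in 11 of 12 libraries. Pdcd1, Tnfrsf4 (2.31 TPM), Icos (2.07 TPM) and Lag3 (1.81 TPM) did not differ from their neighbours beyond their spread, since Pdcd1 was above Tnfrsf4 in 6 (2 of 6 IL-10 B-WT and 4 of 6 IL-10 B-KO lungs), Tnfrsf4 above Icos in 8 (3 and 5) and Icos above Lag3 in 5 of 12 libraries (2 and 3). Lag3 was above Ctla4 (1.48 TPM) in 11 of 12 libraries, Ctla4 above Il2ra (1.25 TPM) in 5 (4 of 6 IL-10 B-WT and 1 of 6 IL-10 B-KO lungs), and Il2ra above Ikzf2 (0.64 TPM) in 10 (4 and 6). Foxp3 (0.595 TPM) came last and was below Ikzf2 in 7 of 12 libraries, 2 of 6 IL-10 B-WT and 5 of 6 IL-10 B-KO lungs.

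The genes of the list varied together from lung to lung. Summed over the 10 genes, IL-10 B-WT replicates 1 to 6 had 56.8, 68.7, 44.0, 8.96, 8.63 and 23.7 TPM, and IL-10 B-KO replicates 1 to 6 had 53.9, 14.6, 26.4, 31.5, 45.3 and 41.0 TPM. The 2 highest and the 2 lowest sums were thus all in IL-10 B-WT lungs, with every IL-10 B-KO lung between them. IL-10 B-WT replicate 2 was the highest library for 8 of the 10 genes, and IL-10 B-WT replicates 4 and 5 were the lowest for 4 genes each. Over the 45 pairs of genes, the median Pearson's r on log2(TPM + 1) was 0.72 over 12 libraries and 0.76 after each genotype's mean was subtracted, and it was 0.67 without IL-10 B-WT replicate 2. Tnfrsf9 was least like the rest, with a median r of 0.31 with the other 9 genes, against 0.77 over the 36 pairs without it. This rested on 1 lung, since without IL-10 B-WT replicate 2 these medians were 0.65 and 0.67, and those of Ikzf2 (0.50) and Foxp3 (0.57) were lower. All genes of a library share 1 total, and these r are given as a description.

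Because T cell RNA differed so much between lungs, each gene was also set against the mean TPM of Cd3d, Cd3e, Cd3g and Cd247, which encode the signaling chains of the T cell receptor. That mean was 14.7 ± 9.09 TPM for IL-10 B-WT and 13.5 ± 8.95 TPM for IL-10 B-KO (SD, n = 6 each, exact permutation p = 0.894). For every 100 TPM of it, Foxp3 was at 9.83, 12.6, 4.32, 7.0, 11.7 and 6.56 TPM in replicates 1 to 6 of IL-10 B-WT. In IL-10 B-KO replicates 1 to 6 it was at 3.33, 3.72, 3.24, 4.69, 2.99 and 3.54 TPM. The IL-10 B-KO lungs lay close together, and 5 of the 6 lay under all IL-10 B-WT lungs, the exception being replicate 4, above IL-10 B-WT replicate 3. The difference of mean log2 ratios was -1.02 (two-sided exact permutation p = 0.00649), with the means at 8.67 ± 3.22 and 3.58 ± 0.599 TPM per 100 (SD, n = 6 each). These ratios use a pseudocount of 0.1, with which Foxp3 alone was at -1.08, so that division by the Cd3 genes did not enlarge the difference. It was -0.78 with Trac as the denominator (exact permutation p = 0.0368) and -0.52 with Cd4 (exact permutation p = 0.154), so that relative to Cd4 the difference did not pass 0.05. With each library left out in turn, the ratio to the Cd3 genes passed in 12 of 12 analyses (exact permutation p from 0.00216 to 0.0108). Cd4 itself had a log2 fold change of -0.50 (limma adjusted p = 0.641).

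Of the other genes, Ctla4 and Tnfrsf9 also had an exact permutation p of at most 0.05 relative to the Cd3 genes, which makes 3 of 10 comparisons, and these p-values were not adjusted. By the same ratio test, IL-10 B-KO had the lower ratio at that p for 1.18% of all genes that passed the filter and the higher for 3.08%, against Ctla4 and Tnfrsf9, 1 each, of the 8 genes of the list that passed it. Ctla4 was at 7.15 to 24.0 TPM per 100 in lungs of IL-10 B-WT mice and at 2.63 to 17.5 TPM per 100 in lungs of IL-10 B-KO mice, of which 4 lay under all IL-10 B-WT lungs. The difference of mean log2 ratios was -1.02 (exact permutation p = 0.0368), which passed 0.05 in 4 of 12 analyses with 1 library left out (0.00866 to 0.0736), and with Trac or Cd4 as the denominator the exact permutation p was 0.119 and 0.249. Tnfrsf9 was at 20.4 to 34.5 TPM per 100 in 5 IL-10 B-WT lungs and at 170 in IL-10 B-WT replicate 1, and at 40.9 to 199 TPM per 100 in lungs of IL-10 B-KO mice. The difference was 1.54 (exact permutation p = 0.0281), which also passed in 4 of 12 (0.00433 to 0.0628), and the exact permutation p was 0.0281 with Trac and 0.0238 with Cd4. Pdcd1 had a difference of 0.62 (exact permutation p = 0.193), although 4 of 6 IL-10 B-KO lungs were above every IL-10 B-WT lung. With Trac as the denominator the Pdcd1 difference was 0.86 and passed (exact permutation p = 0.0281), and with Cd4 it was 1.12 (exact permutation p = 0.0909). Relative to the Cd3 genes it passed in 1 of 12 analyses with 1 library left out. That was without IL-10 B-KO replicate 2 (0.95, exact permutation p = 0.0173). Ikzf2, Icos, Lag3, Tnfrsf18 and Il2ra had differences between -0.29 and 0.06 with exact permutation p-values of 0.327 or more. Tnfrsf4, at 0 in 1 IL-10 B-WT lung, had a difference of 0.70 (exact permutation p = 0.448). Without division and with the same pseudocount of 0.1, Ctla4 was at -1.08, Tnfrsf9 at 1.48, Pdcd1 at 0.56 and Tnfrsf4 at 0.64, since division moves every gene's difference by the same amount, that of the Cd3 genes between the genotypes.

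**Figure D2:**
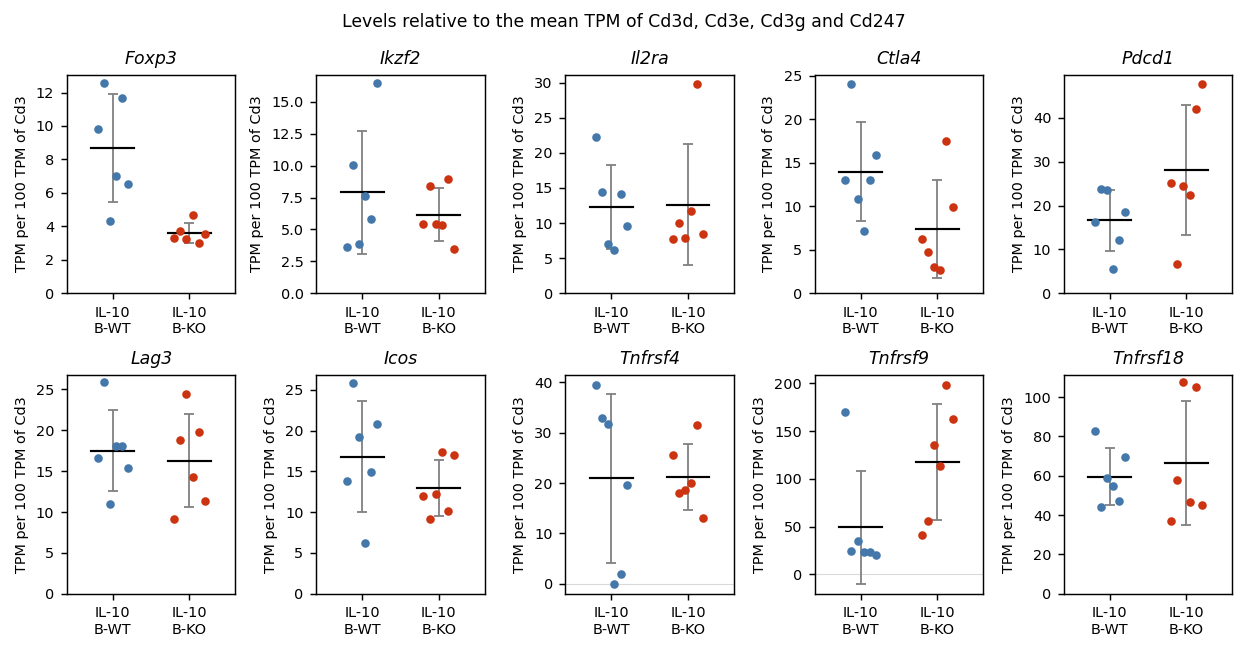
TPM of each gene for every 100 TPM of the mean of Cd3d, Cd3e, Cd3g and Cd247 (y axis) in 6 IL-10 B-WT (blue) and 6 IL-10 B-KO lungs (red), with replicates 1 to 6 from left to right, a black line at the mean and a grey bar of 1 SD to either side. Foxp3 lies between 4.32 and 12.6 in IL-10 B-WT lungs and between 2.99 and 4.69 in IL-10 B-KO lungs.

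How far each gene followed T cell RNA was examined with a second term in the limma analysis, the mean log2(TPM + 1) of the same 4 Cd3 genes. Testing its slope was a choice made after the data were seen. All 8 genes had a positive slope, and 3 of the 8, Icos, Tnfrsf4 and Pdcd1, had a slope with an adjusted p of at most 0.05, against 0.871% of all tested genes. The slope of Tnfrsf4 was 1.27 (SE 0.16, adjusted p by limma 0.00234), that of Pdcd1 1.03 (SE 0.15, adjusted p = 0.00604) and that of Icos 0.86 (SE 0.12, adjusted p = 0.00338). For Icos, Pearson's r with the term was 0.92 and Spearman's rho 0.90 over the 12 libraries (permutation p = 3e-05 and 1.8e-04). Icos had an r of 0.94 within IL-10 B-WT and 0.95 within IL-10 B-KO lungs, and 0.91 without the 2 lungs farthest from the median of the term, replicate 2 of IL-10 B-WT and replicate 1 of IL-10 B-KO. Ctla4 (adjusted p = 0.0545), Tnfrsf18 (0.0589), Lag3 (0.0966), Il2ra (0.155) and Tnfrsf9 (0.235) did not pass by limma. Without those 2 lungs, Icos and Ctla4 did not pass the filter on low TPM and 0 of the 6 genes still tested passed by limma, although the slopes of Tnfrsf4 (1.42, limma adjusted p = 0.0517) and Pdcd1 (1.15, adjusted p = 0.0723) were larger there.

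With the T cell term beside genotype, none of the 8 genes was called between genotypes by limma, while 2 had an unadjusted p of at most 0.05, 1 of them lower, against 5.95% of all tested genes, and 1 higher, against 10.3%. These were Ctla4, with a log2 fold change of -0.58 (limma unadjusted p = 0.0305, adjusted p = 0.270), and Tnfrsf9, with 1.27 (unadjusted p = 0.0178, adjusted p = 0.250). For Foxp3, r with the term was 0.71 and rho 0.69 (permutation p = 0.00549 and 0.0164). Within genotypes, r of Foxp3 was 0.80 over IL-10 B-WT and 0.96 over IL-10 B-KO lungs, and without the same 2 lungs the pooled r was 0.56. For Ikzf2 the pooled r of 0.70 (rho 0.62, permutation p = 0.0102 and 0.0348) was 0.34 without them and thus rested in part on them.

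Tnfrsf9 varied with the macrophage markers. The macrophage term, chosen after the data were seen, was the mean log2(TPM + 1) of Adgre1, Csf1r, Cd68 and Fcgr1, at 4.54 ± 1.48 for IL-10 B-WT and 6.32 ± 1.09 for IL-10 B-KO (SD, n = 6 each, exact permutation p = 0.0433). The Tnfrsf9 slope on it was 0.74 (SE 0.12, adjusted p by limma 5.78e-04), with an r of 0.92 and a rho of 0.84 over the 12 libraries (permutation p = 6e-05 and 0.00116). Within genotypes, r of Tnfrsf9 was 0.92 over IL-10 B-WT and 0.83 over IL-10 B-KO lungs, and it was 0.85 without IL-10 B-WT replicates 4 and 5, the farthest from the median. A positive slope on this term passed for 31.8% of all tested genes, so that passing it is not particular to Tnfrsf9, and among the 8 genes only Tnfrsf18 also passed (slope 0.39, limma adjusted p = 0.0198). Without IL-10 B-WT replicates 4 and 5, however, r of Tnfrsf18 with the term was 0.13. With the macrophage term beside genotype, the genotype difference of Tnfrsf9 was -0.10 (limma adjusted p = 0.979). In that fit the median log2 fold change of all tested genes was -0.13. The other tested genes of the list were also below 0, from -0.31 (Pdcd1) to -0.92 (Ctla4), so that the shift was not particular to Tnfrsf9. The term itself differed between genotypes, and the part of macrophage RNA in the Tnfrsf9 level was not tested. Foxp3, Ctla4, Ikzf2, Icos and Lag3 had an r between -0.19 and 0.11 with the macrophage term.

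**Figure D3:**
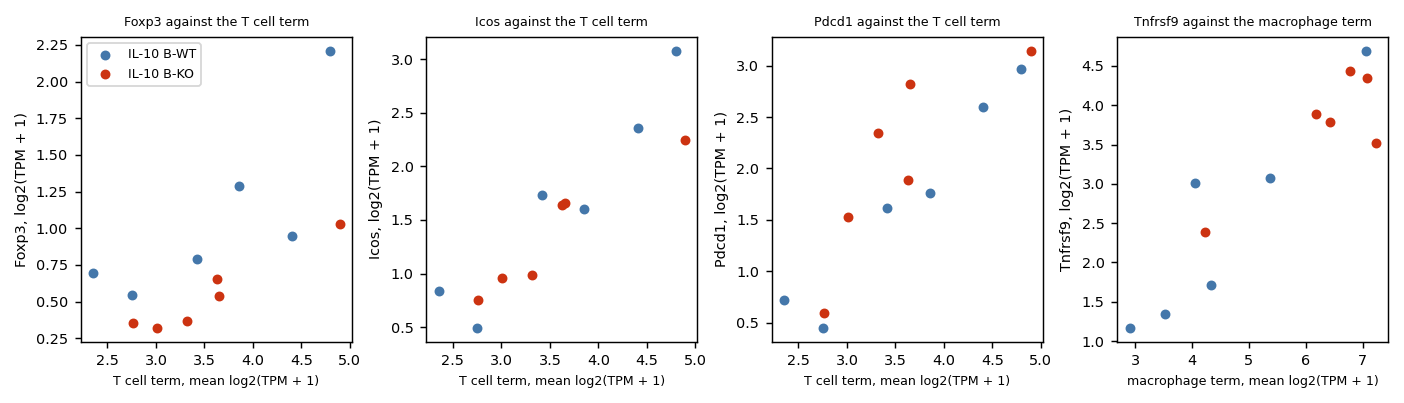
Foxp3, Icos and Pdcd1 against the T cell term and Tnfrsf9 against the macrophage term, all on the log2(TPM + 1) scale, with 1 point per lung (blue IL-10 B-WT, red IL-10 B-KO, 6 each). Icos rises with the T cell term in both genotypes (r 0.92 over 12 lungs), most Foxp3 points of IL-10 B-KO lungs lie below those of IL-10 B-WT lungs at a like T cell term, and Tnfrsf9 rises with the macrophage term (r 0.92).

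Many of the ligands, though not IL-2, are made by antigen-presenting or stromal cells. Of 11 ligand genes, 8 were tested, 7 of them with a higher and 1 with a lower level in IL-10 B-KO lungs, 3 had an unadjusted p of at most 0.05, all higher, and 0 were called. Their median log2 fold change was 0.82. Tnfsf9, the ligand of 4-1BB, was at 0.81 to 17.8 TPM in lungs of IL-10 B-WT and at 7.70 to 15.0 TPM in those of IL-10 B-KO, a log2 fold change of 1.26 (limma adjusted p = 0.312). Like its receptor, it was called without IL-10 B-WT replicate 1 (1.63, limma adjusted p = 0.0273). Lgals3 and Fgl1, both ligands of LAG-3, had log2 fold changes of 1.51 and 0.71 (limma adjusted p = 0.301 and 0.259), the latter 1.33 with a pseudocount of 0.1. The PD-1 ligands Cd274 and Pdcd1lg2 had log2 fold changes of 1.14 and 0.67, and the CTLA-4 ligands Cd80 and Cd86 of 0.88 and 0.75, none of them with a limma adjusted p under 0.489 or over 0.527. Pdcd1lg2 was at 1.15 with a pseudocount of 0.1. With the macrophage term these were -0.64 for Cd274, -0.55 for Cd80, -0.30 for Pdcd1lg2 and -0.23 for Cd86. Icosl was at -0.18 (limma adjusted p = 0.833). Il2, Tnfsf4 and Tnfsf18 did not pass the filter, at no more than 0.25, 0.31 and 1.03 TPM in any library.

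Further genes of the same biology were counted from lists. Of 20 other regulatory T cell genes, 13 were tested, an unadjusted p of at most 0.05 was found for 3 that were higher and 2 that were lower in IL-10 B-KO, 0 were called, and the median log2 fold change was 0.21. Areg, the epidermal growth factor receptor ligand of repair, had a log2 fold change of 1.36, Nrp1 of -0.69 and Irf4 of -1.14 (limma adjusted p = 0.195, 0.304 and 0.341). Irf4 is also a plasma cell gene and Nrp1 is abundant in endothelium. Of 10 other inhibitory receptors, all tested, 5 had an unadjusted p of at most 0.05, all higher, 0 were called and the median was 0.43, with Havcr2 at 1.36, Cd244a at 0.81 and Vsir at 0.72 (limma adjusted p = 0.298, 0.330 and 0.375). Havcr2 and Vsir are also expressed by myeloid cells, whose markers were higher in the same lungs (median 1.48 over the macrophage and 1.57 over the neutrophil markers), and the part of these cells was not tested. Of 8 other costimulatory receptors, 5 were tested, 1 had an unadjusted p of at most 0.05, 0 were called and the median was 0.17, with Tnfrsf1b at 1.66, Tnfrsf25 at -0.49 and Tnfrsf8 at 0.60 (limma adjusted p = 0.376, 0.541 and 0.591). Of 13 T cell factors, 12 were tested, 2 had an unadjusted p of at most 0.05, both lower, and the median was 0.11. These were Lef1 at -1.01 and Gata3 at -0.81 (limma adjusted p = 0.232 and 0.238), followed by Tcf7 at -0.59 (adjusted p = 0.455).

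The genes most like the list were found by Pearson's r over the 12 libraries with the mean z-score of its 8 filtered genes, the list left out and no test made. They were Gpr171 (0.98), Agap2 (0.97), Ltb, Ubash3a and Fcho1 (0.96 each). After each genotype's mean was subtracted, Agap2, Gpr171, Fcho1, Il21r and Sh2d2a came first, with r from 0.96 to 0.98. Foxp3 was followed most closely by Lta (0.96), Bcl11a (0.92), P2ry10 (0.92), Tcf7 (0.91) and Rtl6 (0.91), and with genotype means subtracted by Lta, Pglyrp2, Gcsam, Septin6 and H2-Eb2, with r from 0.93 to 0.95. Bcl11a, P2ry10, Gcsam and H2-Eb2 are also expressed by B cells, which like Foxp3 were highest in IL-10 B-WT replicate 2. For Tnfrsf9, chosen for this after its values were seen, Lin9 (0.99), Pdcd1lg2 (0.98), Cybb (0.98), Jpt1 (0.97) and Gm15931 (0.97) came first. With genotype means subtracted, Pdcd1lg2, Lin9, Ticam2, Tnf and Cybb came first for Tnfrsf9, with r from 0.97 to 0.99.

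Since most of these genes moved together between lungs, the 250 bases before a transcript start were read from RefSeq (GRCm38.p6), which held entries for 7 of the 10 genes, Foxp3, Il2ra, Ctla4, Pdcd1, Tnfrsf4, Tnfrsf9 and Tnfrsf18. The RefSeq start lay 0 to 158 bases from that of a principal transcript in GENCODE, and of the 2 entries each of Foxp3 and Tnfrsf9 the nearer was taken. The windows of Foxp3, Ctla4 and Tnfrsf9 lie inside the gene coordinates above, and that of Tnfrsf18 (156026072 to 156026321) lies partly inside. These coordinates include transcripts that start farther upstream. All 7 held the NFAT core GGAAA on either strand, which 55.6% of 32851 promoters of the same length also held. None held the AP-1 motif TGANTCA, the RUNX motif TGTGGT or the forkhead motif GTAAACA, found in 6.75%, 14% and 3.17% of promoters. The STAT motif TTCNNNGAA was in that of Tnfrsf18 (7.02% of promoters) and the NF-kB motif in that of Il2ra (7.25%). These are matches of letters in a short window and not binding sites. The sequences of Foxp3, whose ratio to the Cd3 genes differed, of the inhibitory receptors Ctla4 and Pdcd1, whose log2 fold changes had opposite signs, and of Tnfrsf9, with the largest log2 fold change of the list, are shown from 5′ to 3′ with the NFAT core or its complement in capitals.
Foxp3, chrX:7579426-7579675, plus strand: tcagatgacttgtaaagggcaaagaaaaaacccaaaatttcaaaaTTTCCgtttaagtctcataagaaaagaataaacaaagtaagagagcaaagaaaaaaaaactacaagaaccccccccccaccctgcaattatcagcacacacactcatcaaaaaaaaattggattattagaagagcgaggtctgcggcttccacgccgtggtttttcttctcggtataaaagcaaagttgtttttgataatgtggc
Ctla4, chr1:60908775-60909024, plus strand: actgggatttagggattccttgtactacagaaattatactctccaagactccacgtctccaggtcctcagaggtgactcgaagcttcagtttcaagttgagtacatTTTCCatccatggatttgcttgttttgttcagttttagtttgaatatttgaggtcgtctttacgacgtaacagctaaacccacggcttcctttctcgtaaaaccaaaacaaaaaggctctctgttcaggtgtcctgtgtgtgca
Pdcd1, chr1:94052554-94052803, minus strand: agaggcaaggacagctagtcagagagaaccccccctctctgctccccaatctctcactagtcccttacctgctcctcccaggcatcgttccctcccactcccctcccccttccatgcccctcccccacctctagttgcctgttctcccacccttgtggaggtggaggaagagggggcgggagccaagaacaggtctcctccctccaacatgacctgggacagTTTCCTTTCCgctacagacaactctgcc
Tnfrsf9, chr4:150919905-150920154, plus strand: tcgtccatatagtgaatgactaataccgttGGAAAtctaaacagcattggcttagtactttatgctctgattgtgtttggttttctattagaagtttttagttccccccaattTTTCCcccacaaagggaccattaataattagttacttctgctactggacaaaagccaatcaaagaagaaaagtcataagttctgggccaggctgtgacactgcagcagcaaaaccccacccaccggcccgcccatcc
Foxp3 and Ctla4 held 1 match each and Pdcd1 and Tnfrsf9 2 each.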

How the data were processed

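The 55414 genes of 1 table were read for 12 lungs, with 6 of each genotype. The authors deposited TPM, 1 column per library and rounded to 2 decimals; the submitters' processing notes name fastp, HISAT, RSEM and GRCm38.p5 without versions. No column of values was left unused and no 2 libraries were identical. Columns summed to between 991646 and 994430 TPM, and TPM keep no depth.

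Genotypes were compared on log2(TPM + 1) in R 4.3.3 by limma 3.58.1 (lmFit, trended eBayes) without further terms, with Benjamini-Hochberg adjustment over 15148 genes with at least 1 TPM in at least 6 libraries, and a minimum absolute log2 fold change of 1. Fold changes on this scale understate those of genes with low TPM. Single genes and ratios to Cd3 genes (pseudocount 0.1) were compared by two-sided exact permutation tests, and correlations by 100000 permutations. Coordinates came from GENCODE release M21 on GRCm38. Other steps used Python 3.11.15 with SciPy 1.17.1, pandas 2.3.3, NumPy 2.4.6 and matplotlib 3.10.9. The limma models were run on simulated independent genes whose planted changes were larger than those of the list. This does not test them on correlated genes or smaller differences.

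The 10 genes and the other 20 lists (179 genes) were chosen by hand with earlier results of these data known. From the other lists, called genes, the 3 with the smallest p of each list and the ligands were named, with the 5 genes most like the list and most like Foxp3. Alternatives changed the scaling (quantile normalization, centring on the median, or a total without immunoglobulin genes), the pseudocount (0.1), the filter (none, or a mean TPM of 5 or more), the model (a T cell term, array quality weights, or replicate numbers as blocks) and the lungs, each left out in turn. A macrophage term, slopes on both terms and leaving out 2 libraries were added after the data were seen.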

Additional observations from a re-analysis of the deposited data

Results flagged for a closer look

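Of 20 groups of 6 lungs (10 genes in each genotype), 7 had a lung whose gap to the nearest other was more than 0.625 of the range of the group. The rule was applied to untransformed TPM, and all 7 flagged lungs were the highest of their groups. A share of about 1 in 20 holds for normally distributed values and is no measure for these TPM. In IL-10 B-WT replicate 2, Foxp3 was at 3.63, Ctla4 at 6.93 and Lag3 at 7.48 TPM, each the highest of its group. IL-10 B-KO replicate 1 had the highest Ikzf2 (1.69 TPM), Tnfrsf4 (8.01 TPM) and Lag3 (2.84 TPM) of its group. These are the lungs with the highest sum of T cell markers in their genotype, 585 and 603 TPM. These values share lungs and come from correlated genes, and so are not independent of each other. In IL-10 B-WT replicate 1, Tnfrsf9 was at 24.9 TPM, the highest of its group, and the macrophage markers summed to 1513 TPM there, the highest sum among IL-10 B-WT lungs. The part of cell numbers in these values was not tested.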

How the results depend on the processing

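None of the genes of the list was called by limma under the alternatives over all 12 libraries, and leaving out each library gave between 0 and 1, the 1 being Tnfrsf9 without IL-10 B-WT replicate 1. The number of genes called over the whole table was 75, with 5.33% of them higher in IL-10 B-KO. It was 6 without the filter (16.7% higher), 27 after rescaling without immunoglobulin genes, 39 with quantile normalization, 36 with median centring, 318 with array quality weights (25.5% higher), 3 with the macrophage term and 133 without IL-10 B-WT replicates 1 and 2 (21.8% higher), the last 2 chosen after the data were seen. Leaving out each library gave 15 to 576, the latter without IL-10 B-WT replicate 1 (59.7% higher). Median centring moved the median log2 fold change of all genes from 0.10 to -0.01. With the replicate number as a block (replicate block), 45 genes were called, 0 of them from the list. The labels do not say whether the numbers pair the lungs. The correlation of deviations between lungs of the same number lay between -0.29 and 0.05, and 0 of 6 numbers correlated best with themselves. With 6 numbers this showed no pairing but cannot establish that there was none.

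In the exact permutation test, 0 of 10 genes had a p of at most 0.05, against 1 with a pseudocount of 0.1 (Foxp3), 1 after rescaling without immunoglobulin genes (Foxp3), 1 without IL-10 B-WT replicates 1 and 2 (Tnfrsf9) and 0 to 1 with each library left out. Relative to the Cd3 genes, 3 of 10 passed, against 3 with Trac (Foxp3, Pdcd1 and Tnfrsf9), 1 with Cd4 (Tnfrsf9) and 1 to 3 with each library left out, where the exact permutation p of Foxp3 lay between 0.00216 and 0.0108, that of Ctla4 between 0.00866 and 0.0736 and that of Tnfrsf9 between 0.00433 and 0.0628. Of the slopes on the T cell term, 3 of 8 passed, against 0 of 6 tested without replicate 2 of IL-10 B-WT and replicate 1 of IL-10 B-KO, where Tnfrsf4 and Pdcd1 had slopes of 1.42 and 1.15, and 3 to 5 with each library left out, 5 being without IL-10 B-KO replicate 5.

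Log2 fold changes that changed sign were those of genes not called. Without IL-10 B-WT replicates 1 and 2, Il2ra was at 0.34, Tnfrsf4 at 0.62, Tnfrsf18 at 0.32, Lag3 at 0.18, Icosl at 0.27 and Icos, which did not pass the filter there, at 0.016. With a pseudocount of 0.1, Tnfrsf4 was at 0.64 and Tnfrsf18 at 0.0024, and with the T cell term they were at 0.063 and 0.015. Quantile normalization put Tnfrsf4 at 0.031. The macrophage term, with which the median of all tested genes was -0.13, put Tnfrsf9 at -0.10 and Pdcd1 at -0.31. It put Cd80 at -0.55, Cd86 at -0.23, Pdcd1lg2 at -0.30 and Cd274 at -0.64. With each library left out, Il2ra lay between -0.27 and 0.11, Tnfrsf4 between -0.37 and 0.31, Tnfrsf18 between -0.27 and 0.12, Lag3 between -0.33 and 0.092, Icosl between -0.43 and 0.057 and Ikzf2 between -0.31 and 0.0062. The causes were not tested. With 6 lungs per genotype and TPM mostly below 10, the depth behind these values is unknown.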

Other observations

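Other cells that carry receptors or ligands of the list were counted from lists of markers, with the median log2 fold change of all tested genes at 0.10. All 9 NK cell markers had the higher mean in IL-10 B-KO, 0 of them at an unadjusted p of at most 0.05 (median 0.30), led by Klrk1 (0.66), Ncr1 (0.45) and Nkg7 (0.51). Of 9 group 2 innate lymphoid markers, 5 were tested, and 1 (Areg) was higher and 1 (Gata3) lower at that p (median 0.33), and Calca was at 0.63. Of 10 T helper cytokines, Csf2 (0.90, limma adjusted p = 0.407) and Ifng (0.23) passed the filter. Of the T cell markers, Cd2 (-0.49), Cd4 (-0.50) and Cd247 (-0.23) had the smallest p-values. Of 9 mature dendritic cell markers, 8 were tested and 1 was lower at that p, Ccl22 (-0.71), with Socs2 at 0.44 and Ccr7 at -0.50 (median -0.08). Il12b, which did not pass the filter, was at 0.03. Of 6 plasmacytoid dendritic cell markers, 5 were tested and 1 was lower, Ly6d (-2.11), which B lineage cells also express, with Bst2 at 0.51 and Cox6a2 at -0.66 (median 0.05). Ccr9, under the filter, was at 0.21.

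All 7 neutrophil markers were higher at an unadjusted p of at most 0.05 (median 1.57), led by Retnlg (2.09), S100a9 (1.87) and S100a8 (1.94), with 0 called by limma. Of 9 macrophage markers, 6 were (median 1.48), led by Cd68 (1.73), C1qb (1.65) and Adgre1 (1.94), with 0 called. All 9 B cell markers were lower, 8 of them at that p and 1, Cd79a (-4.16), called (median -1.90), followed by Pax5 (-2.87). Of 7 plasma cell markers, 6 were tested, of which Jchain (-7.60) and Mzb1 (-3.57) were called and Irf4 was at -1.14, while 1 marker was higher at that p, Sdc1 (0.83), chosen after its value was seen (median -0.75). Tnfrsf17, which did not pass the filter, was at -1.23, with all IL-10 B-KO lungs under all IL-10 B-WT lungs (exact permutation p = 0.00216). Of 6 mast cell and basophil markers, 3 were tested, of which Cpa3 (-1.01) and Kit (-0.65) were lower at an unadjusted p of at most 0.05 and Gata2 was at -0.42 (median -0.65). The other 3, under the filter, did not follow, with Mcpt8 at 0.12, Ms4a2 at -0.05 and Fcer1a at -0.11. Of 6 endothelial markers, 1 was lower, Kdr (-0.71), with Cdh5 at -0.40 and Tek at -0.36 (median -0.37). Of 7 alveolar epithelial markers, 3 were higher, Sftpa1 (1.09), Lamp3 (1.27) and Sftpb (0.74), with a median of 0.48. Their sum was lowest by far in IL-10 B-WT replicate 5, at 3900 TPM. Of 6 proliferation genes, 2 were higher, Cdk1 (1.61) and Ccnb1 (0.90), with Birc5 at 1.14 and a median of 0.96.

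Limits hold for all of the above. With 6 lungs per genotype and a wide spread within IL-10 B-WT, a difference of the size seen for Ctla4 or Foxp3 can miss the threshold without being absent. Whole lung does not show which cell made an RNA, and several receptors of the list are expressed by more than 1 cell type. The data used here are RNA levels alone and hold no protein, no cell numbers and no state of single T cells. The series holds no lung without LPS. The deletion of Il10 in B cells and the low level of B cell markers in IL-10 B-KO lungs occur in the same lungs and cannot be told apart.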
